A study of Mus musculus with 21 samples.

Results

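The genes described here are the collagen chain genes of the mouse, taken as every protein-coding RefSeq gene on GRCm38.p6 whose symbol has the form Col, a number, the letter a and a number. The rule gave 44 genes of the 21887 protein-coding genes on chromosomes 1 to 19, X and Y. All 44 had a body of at least 2 kb, as had 19304 protein-coding genes in all. H3K36me3, trimethylation of lysine 36 of histone H3, was profiled by chromatin immunoprecipitation and sequencing (ChIP-seq) in C2C12 cells, mouse myoblasts that fuse into myotubes when they differentiate in culture. Wild-type (WT) cells had 2 libraries in each of 5 conditions: the start (day 0), then days 1 and 5, each with control medium or with methionine restricted. Each of 2 knockout (KO) lines for Setd2 had 1 library per condition, so that a KO value rests on 1 line and 1 library. The labels call the lines 1 and 2, whereas the peak names inside the lists call them replicates of a KO group, and the labels were followed. Nothing in the labels says that WT replicates came from separate cultures, so the p-values measure only the spread between these libraries. Cover is the percent of a gene body that lies inside merged peaks of a library, differences between covers are in percentage points, and marked means a cover of 50% or more.

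Collagen chains assemble into triple helices. Fibrillar collagens form the tensile fibrils of connective tissue, type IV collagens form the sheet of basement membranes, type VI collagens form beaded filaments around muscle fibres and other cells, and the FACIT collagens (fibril-associated collagens with interrupted triple helices) sit on the surface of fibrils. In muscle, the basement membrane around each fibre carries type IV collagen and the multiplexin Col18a1. H3K36me3 is laid over the bodies of transcribed genes by SETD2, mostly toward their 3' ends, so its peaks report where the mark was called and not how much RNA a gene made.

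WT libraries held 63423 to 87398 peaks over 110 to 183 Mb. Line 1 of the KO held 13.9 to 74.1 Mb in its libraries other than restricted day 1, which stood apart with 791 peaks over 0.307 Mb, and line 2 held 0.00821 to 7.13 Mb. In line 2 restricted day 1 was also near empty, with 127 peaks, and its other libraries held 1.88 to 7.13 Mb. Depth is unknown, since peak lists carry none, and the Drosophila spike-in named in the labels cannot be applied to them. Setd2 itself was covered to 45.6% to 82.8% in WT, to 0 to 24.0% in KO line 1 and was listed at 0 in KO line 2, which reports the mark on that gene and not the protein. Of 7 muscle markers, 6 were marked in at least 1 WT library, among them Myod1 with up to 78.4% and Myog with up to 93.4%. Of 5 cartilage and bone markers, Sox9 had 25.8% to 78.2% and Runx2 8.14% to 38.1% in WT, Acan and Sp7 were listed at 0, and Bglap was not among the genes of at least 2 kb. Adipocyte markers (4 of 4) and endothelial markers (3 of 3) were listed at 0 in every WT library, and of 6 fibroblast markers only Dcn and Pdgfra rose above 0, to at most 34.7% and 3.23%.

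Peaks covered a minority of the collagen genes. In WT, 11 of the 44 were marked in at least 1 of the 10 libraries, and 3 of them, Col1a2, Col3a1 and Col5a1, were marked in all 10. Of the rest, 19 were listed at 0 in all 10 WT libraries. Between 5 and 9 of the 44 were marked in a WT library, which is 11.4% to 20.5% of them, and of all 19304 genes 28.3% and 26.1% were marked at day 0, 22.1% and 23.5% in the control libraries of day 1, 15.8% and 12.5% in its restricted libraries, 27.2% and 25% in the control libraries of day 5 and 17% and 17.5% in its restricted libraries. By class, 6 of 11 fibrillar genes, 2 of 6 type IV genes, 2 of 6 beaded-filament genes and 1 of 2 multiplexin genes were marked in at least 1 WT library, against 0 of 9 FACIT, 0 of 4 transmembrane and 0 of 3 short-chain network genes. Among the 44 the Spearman correlation of gene length with mean WT cover was -0.35, given as a description across genes that share their libraries. Among the 17 with a mean WT cover of at least 5% it was -0.03.

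**Figure D1:**
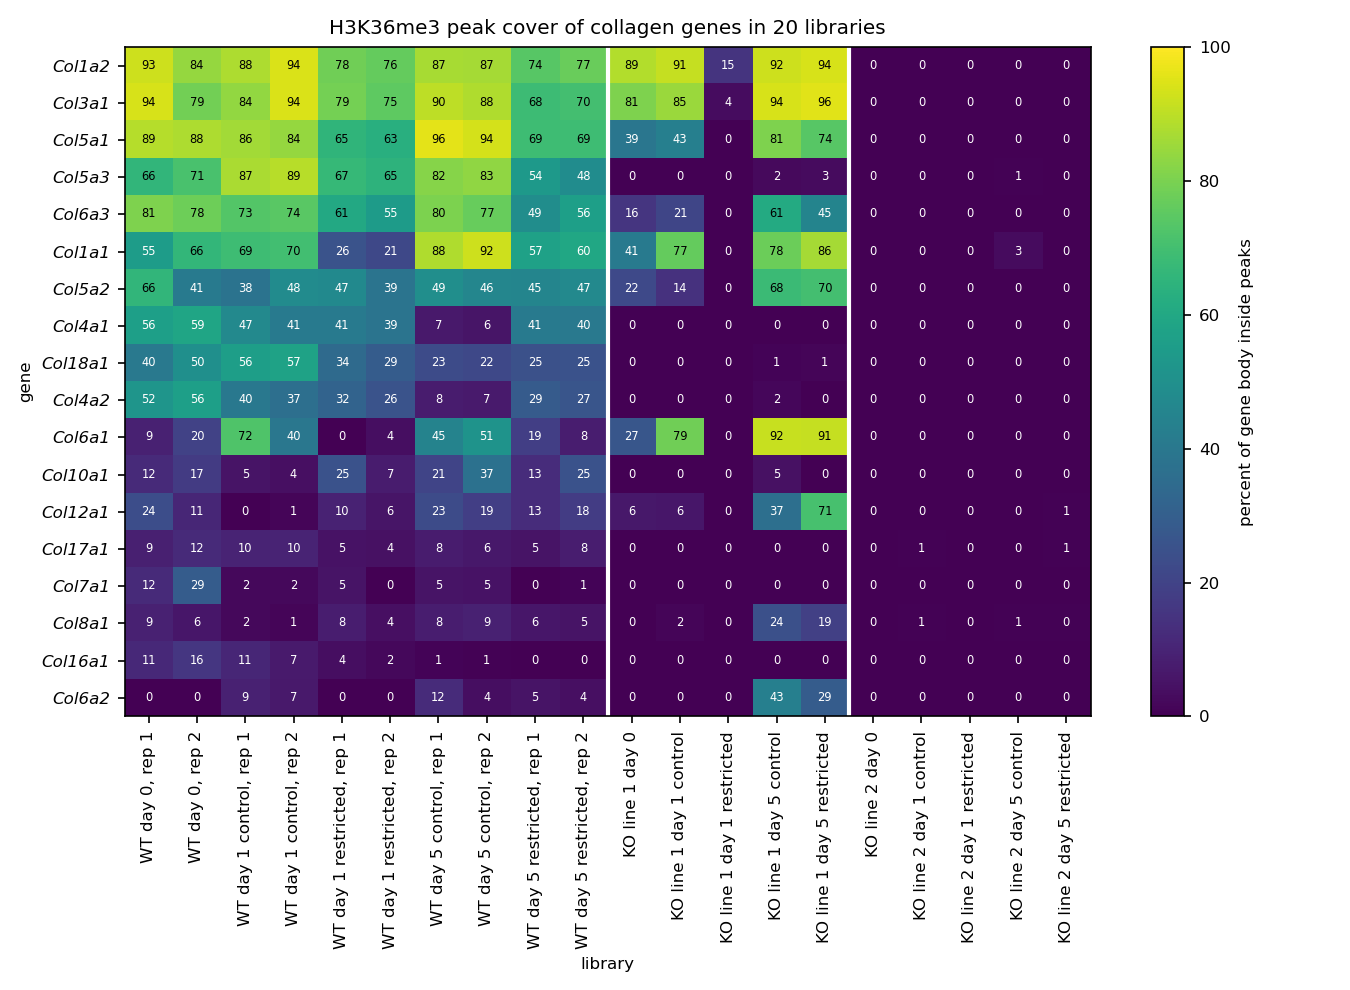
Peak cover (percent of gene body, colour and printed number) of the 18 collagen genes with a mean WT cover of at least 5% or at least 10% in a KO line 1 library, in rows, over the 20 libraries in columns. White lines separate WT, KO line 1 and KO line 2. Col1a2 and Col3a1 stay at 80.9% or more in 4 of the 5 KO line 1 libraries, while KO line 2 does not exceed 3.03% in any row.

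The fibrillar genes held the most cover. Col1a2, the alpha 2 chain of type I collagen (chr6:4505618-4541543), was covered to 92.6% and 84.1% at day 0, 87.5% and 94.4% at day 1 with control medium and 78.2% and 76.2% at day 1 under restriction. At day 5 it had 87.0% and 86.7% in control medium and 74.0% and 77.0% under restriction. All 10 values lay above 73%, with the 4 restricted libraries the lowest. Col3a1 (chr1:45311538-45349706), the chain of type III collagen, went from 93.8% and 78.5% at day 0 to 83.7% and 94.3% at day 1 and 90.1% and 88.2% at day 5 with control medium, and had 79.2%, 75.2%, 68.4% and 70.2% in the restricted libraries of days 1 and 5. Its day 0 and day 1 control libraries overlapped. Col5a1, a fibril-nucleating type V chain, had 88.7% and 87.8% at day 0, 86.0% and 84.3% at day 1 and 96.0% and 93.7% at day 5 with control medium, and 65.5%, 62.9%, 69.0% and 69.1% under restriction. For this gene the control and restricted libraries did not overlap at either day. Col5a3 (chr9:20770050-20815117), a further type V chain, had 66.0% and 71.4% at day 0, 87.4% and 89.2% at day 1 and 81.7% and 83.4% at day 5 with control medium, and 67.0%, 64.8%, 53.8% and 48.5% under restriction.

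Col1a1, the alpha 1 chain of type I collagen, spanned a wider range than its partner Col1a2. It was covered to 55.4% and 66.4% at day 0, 69.1% and 69.6% at day 1 and 87.9% and 92.3% in the control libraries of day 5. Under restriction it had 25.5% and 21.5% at day 1 and 57.4% and 59.6% at day 5, below both control libraries of the same day. Col5a2, the alpha 2 chain of type V collagen, had 66.0% and 40.7% at day 0, 37.99% and 48.2% at day 1 with control medium, 47.5% and 38.6% at day 1 under restriction, and 45.4% to 49.4% in the 4 day 5 libraries. Its replicates at day 0 lay further apart than the means of any of its conditions. The other 5 fibrillar genes were Col11a2 and Col27a1, with at most 1.06% in a WT library, and Col2a1, Col11a1 and Col24a1, listed at 0 in WT.

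The promoter windows of the 2 fibrillar genes with the highest WT cover are shown because their bodies kept peaks in KO line 1 while these windows had none. They run from 250 bases before to 50 bases after the RefSeq start (GRCm38.p6), Col1a2 at chr6:4505368-4505667 and Col3a1 at chr1:45311288-45311587, both on the plus strand, written 5' to 3'.
Col1a2: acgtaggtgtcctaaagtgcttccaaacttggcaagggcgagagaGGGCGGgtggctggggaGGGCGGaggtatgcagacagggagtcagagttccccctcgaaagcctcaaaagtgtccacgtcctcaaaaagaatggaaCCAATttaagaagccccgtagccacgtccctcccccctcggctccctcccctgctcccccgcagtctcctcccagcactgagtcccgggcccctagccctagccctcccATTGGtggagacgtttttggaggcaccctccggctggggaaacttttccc
Col3a1: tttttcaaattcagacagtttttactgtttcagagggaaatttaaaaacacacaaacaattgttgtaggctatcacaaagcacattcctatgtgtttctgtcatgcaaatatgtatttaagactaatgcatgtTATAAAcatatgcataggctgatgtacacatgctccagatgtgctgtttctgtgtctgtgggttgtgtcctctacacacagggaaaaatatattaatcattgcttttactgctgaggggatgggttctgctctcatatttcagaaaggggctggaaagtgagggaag
Capitals mark the TATAAA box, the CCAAT box and the GGGCGG box, each on either strand (a match on the minus strand reads as the reverse complement). Of 21263 promoter windows, 12.6% hold TATAAA, 38.2% CCAAT and 46.2% GGGCGG. A match describes the letters only and is not evidence of a bound site. The Col1a2 window held 2 CCAAT and 2 GGGCGG matches, 13 CpG dinucleotides and a GC content of 61.0%. The Col3a1 window held 1 TATAAA match, 0 CpG and a GC content of 37.7%. No WT or KO line 1 library had a peak over either window, and in WT cover of Col1a2 began a median of 4.19 kb after the start. Peaks overlapped 3 of 38 windows of the collagen genes in at least 1 WT library (Col11a2, Col18a1 and Col20a1), against 4.23% of all windows.

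**Figure D2:**
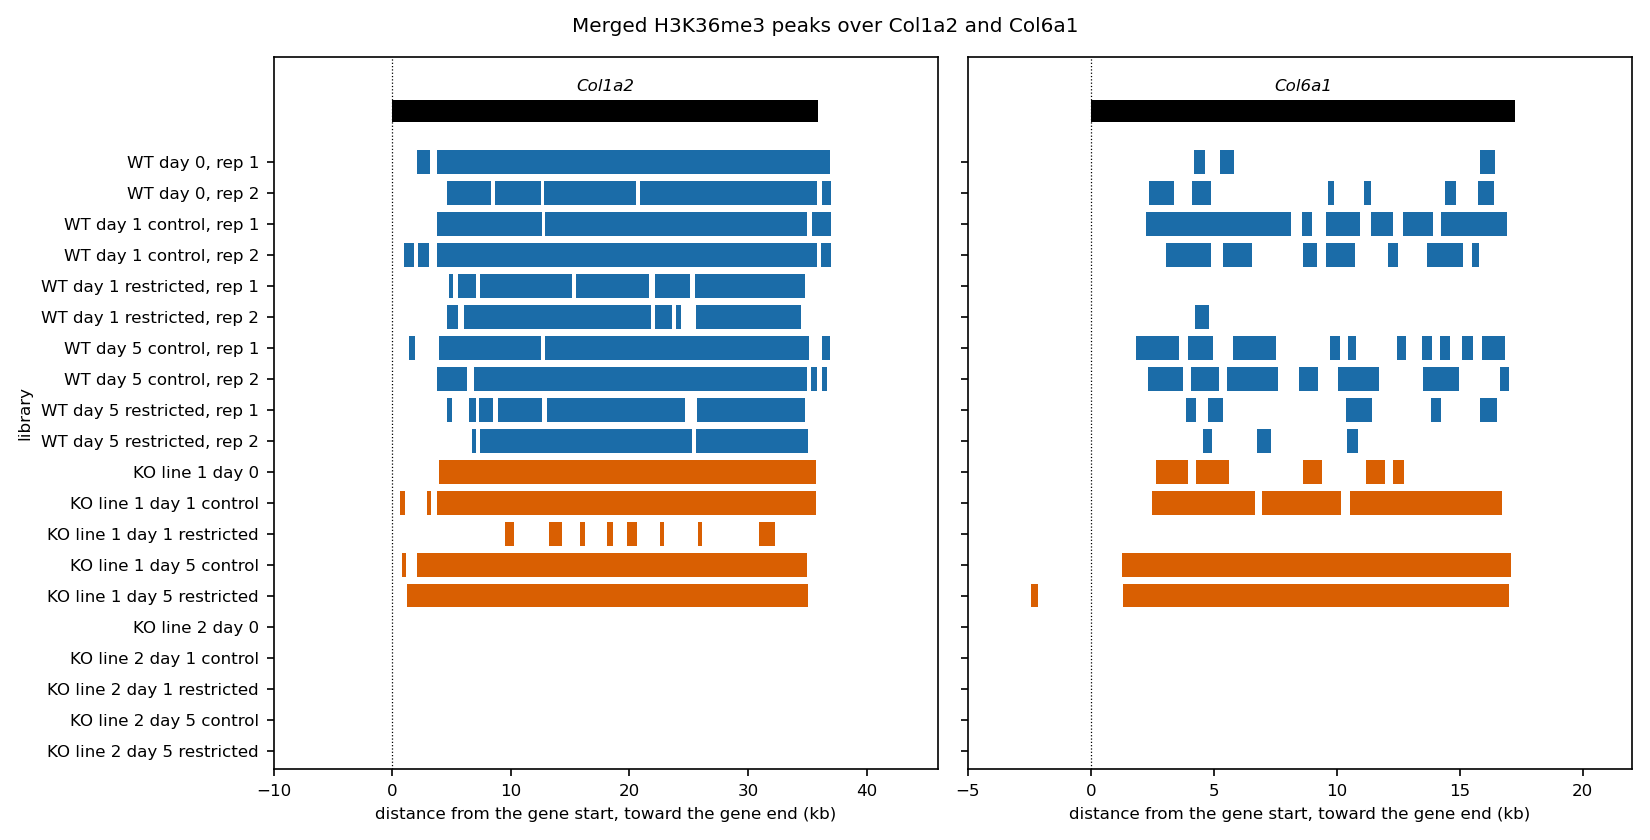
Merged peaks over Col1a2 (left) and Col6a1 (right) in 20 libraries, drawn against distance from the gene start in kb, with the gene body as a black bar at the top. On Col1a2 peaks start inside the gene and run to near its end in WT and in 4 KO line 1 libraries. On Col6a1 the 2 KO line 1 libraries of day 5 hold 1 block each where the WT libraries of the same day hold separate short peaks.

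The beaded-filament genes differed among themselves. Col6a3, the large alpha 3 chain of type VI collagen, had 80.8% and 77.8% at day 0, 73.1% and 74.5% at day 1 and 80.3% and 76.6% in the control libraries of day 5. Under restriction it had 60.5% and 54.7% at day 1 and 48.9% and 56.4% at day 5, all below the control libraries. Col6a1 (chr10:76708792-76726044), the alpha 1 chain, had 9.24% and 19.6% at day 0, 72.4% and 39.7% at day 1 and 44.7% and 51.4% at day 5 with control medium, and 0%, 3.52%, 18.6% and 7.97% under restriction. Its replicates at day 1 in control medium lay far apart. Col6a2, the alpha 2 chain, stayed at 0 to 12.4% in WT, and Col6a4, Col6a5 and Col6a6 did not exceed 0.315%.

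The type IV genes Col4a1 and Col4a2, which encode the main chains of basement membranes, were covered at day 0 and lost most of it by day 5 in control medium. Col4a1 had 56.3% and 58.7% at day 0, 47.1% and 41.0% at day 1 and 7.01% and 5.53% in the control libraries of day 5. Under restriction it had 40.7% and 38.6% at day 1 and 41.0% and 40.4% at day 5. The restricted day 5 libraries thus lay close to those of day 1, and only the control day 5 libraries fell below 10%. Col4a2 went from 52.1% and 56.4% through 40.2% and 36.7% to 7.80% and 7.11% in control medium, and had 31.7%, 25.7%, 28.8% and 26.5% under restriction. Col4a5 reached at most 0.340% in WT, and Col4a3, Col4a4 and Col4a6 were listed at 0 there. Col18a1, the multiplexin of basement membranes, had 40.4% and 49.96% at day 0, 55.9% and 57.5% at day 1 and 22.8% and 21.5% at day 5 with control medium, and 34.4%, 29.2%, 24.8% and 25.4% under restriction. Mean WT cover in 3 equal parts of its body from the 5' to the 3' end was 16.6%, 15.1% and 76.9%. The 10 kb after its 3' end were covered to 64.1% to 100% in WT libraries. Cover running in from there cannot be told apart from its own in an unstranded assay.

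Col4a1 (chr8:11198423-11312889, minus strand) and Col4a2 (chr8:11312805-11449287, plus strand) are transcribed away from each other, and their bodies share 85 bases. Their promoter windows are printed because they overlap by 78 bases and because cover of both genes moved in the same direction in each WT comparison below. The windows are at chr8:11312777-11313076 and chr8:11312555-11312854 (GRCm38.p6), each written 5' to 3' on the strand of its gene, with the same motifs in capitals. The Col4a1 window is set on a start that lies 63 bases inside the 5' end of the body given above.
Col4a1: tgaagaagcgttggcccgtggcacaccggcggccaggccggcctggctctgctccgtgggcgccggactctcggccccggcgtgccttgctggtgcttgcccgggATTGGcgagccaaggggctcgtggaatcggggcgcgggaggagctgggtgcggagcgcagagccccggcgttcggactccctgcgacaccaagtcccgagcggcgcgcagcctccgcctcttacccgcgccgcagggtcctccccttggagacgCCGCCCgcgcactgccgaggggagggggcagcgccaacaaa
Col4a2: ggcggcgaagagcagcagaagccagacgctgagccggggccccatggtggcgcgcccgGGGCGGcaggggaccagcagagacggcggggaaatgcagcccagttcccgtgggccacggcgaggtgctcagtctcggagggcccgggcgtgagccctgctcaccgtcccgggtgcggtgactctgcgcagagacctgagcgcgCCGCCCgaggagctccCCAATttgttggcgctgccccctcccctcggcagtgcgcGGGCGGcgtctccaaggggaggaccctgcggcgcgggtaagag
Col4a1 held 1 CCAAT and 1 GGGCGG match and 37 CpG, and Col4a2 held 1 CCAAT and 3 GGGCGG matches and 33 CpG. Their GC contents were 74.0% and 73.7%. No peak lay over these windows in any WT or KO line 1 library. Within the bodies, mean WT cover in 3 equal parts from the 5' to the 3' end was 10.1%, 26.2% and 76.6% for Col4a1. For Col4a2 these parts had 11.7%, 15.1% and 67.1%. The non-coding genes Gm32709, Gm15418 and Gm46030 lie inside these bodies and cannot be told apart from them in an unstranded assay.

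**Figure D3:**
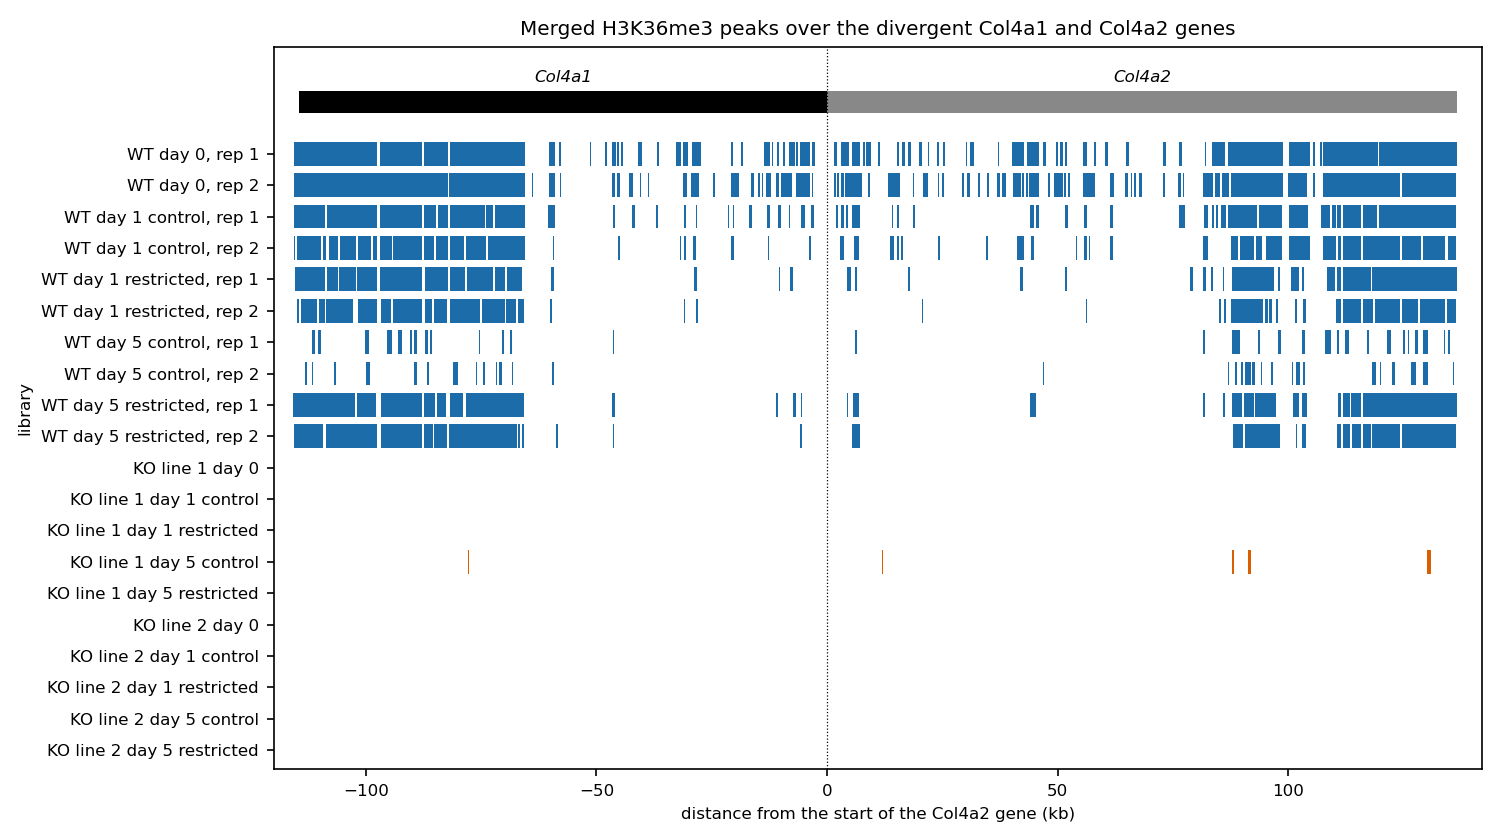
Merged peaks over Col4a1 and Col4a2 in 20 libraries against distance from the start of Col4a2 in kb, with gene bodies as bars at the top. Long blocks fill the far ends of both genes in 8 WT libraries, while the 2 WT libraries of day 5 in control medium hold scattered short peaks and the KO libraries hold few or none.

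Cover was lower or patchy on the other genes. Col12a1, a FACIT collagen, had 23.8% and 10.9% at day 0, 0.377% and 1.24% at day 1 with control medium, 9.53% and 5.81% at day 1 under restriction, 22.9% and 18.6% at day 5 in control medium and 12.5% and 17.8% at day 5 under restriction. Col10a1, the network-forming collagen of growth cartilage, ranged from 3.91% to 37.2%, but its whole body lies inside Nt5dc1, so its cover cannot be assigned to it. Col7a1 of anchoring fibrils ranged from 0 to 29.1%, Col16a1, a FACIT collagen, from 0 to 15.9%, Col17a1, the transmembrane collagen of hemidesmosomes, from 4.30% to 12.1%, and Col8a1, a short-chain network collagen, from 1.25% to 9.32%. Col17a1 had WT cover only in the last of 3 equal parts of its body. The 10 kb after its 3' end were covered to 71.3% to 91.7%, so the limit given for Col18a1 applies to it as well. Col13a1, a transmembrane collagen, had 10.8% and 11.03% at day 5 in control medium and was listed at 0 in the other 8 WT libraries; its WT mean was under the 5% needed for testing. The 9 genes listed at 0 in all 20 libraries were Col26a1, Col2a1, Col4a4, Col6a4, Col6a5, Col8a2, Col9a1, Col9a2 and Col9a3, which include the cartilage collagens of types II and IX. The other 10 genes listed at 0 in WT, Col11a1, Col15a1, Col19a1, Col22a1, Col23a1, Col24a1, Col25a1, Col28a1, Col4a3 and Col4a6, reached at most 4.37% in a KO library. Col20a1 had 1.11% to 6.41% in WT and was listed at 0 in both KO lines, and Col14a1, at most 0.199% in WT, had 9.36% in KO line 1 at day 5 under restriction.

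Methionine restriction was compared with control medium within WT. Of the 44 genes, 17 had a mean WT cover of at least 5% and entered the limma fit over 9514 genes, some of them only through the conditions where they were high. The comparisons below share libraries, so their values are set side by side and not counted as separate evidence. In bulk cells, a mark in fewer cells and less mark per cell cannot be told apart. Marker genes moved with medium and day in WT. The summed cover of the 7 muscle markers was 435 and 453 points in control medium and 171 and 143 under restriction at day 1, and 497 and 516 against 201 and 206 at day 5, with Myod1 and Myog listed at 0 in all 4 restricted libraries. The cartilage and bone markers summed to 88.3 and 83.0 against 46.3 and 33.9 at day 1, and to 87.6 and 75.1 against 50.8 and 53.2 at day 5. The fibroblast marker Dcn was listed at 0 at day 0, and its day 5 libraries had 34.7% and 26.0% with control medium and 12.8% and 11.2% under restriction. The part of these markers in the results that follow was not tested. At day 1, 8 of these 17 fell and 0 rose at a Benjamini-Hochberg adjusted p under 0.05, where 36% of all genes tested fell and 2.38% rose (38.3% in either direction). The median difference was -9.75 points over the 17 and -7.99 over all genes. The largest decreases were in Col6a1, which fell by 54.3 points (SE 9.44, adjusted p = 0.00263), and Col1a1, which fell by 45.8 (SE 4.40, adjusted p = 0.000144). For Col18a1, Col5a3 and Col5a1 the differences were -24.9, -22.4 and -20.9 points, and for Col6a3, Col1a2 and Col16a1 they were -16.2, -13.7 and -6.13. Col16a1 passed the 5% filter only through the control libraries of day 1, in which it is high (4.33% over the other 8 WT libraries), so its call supports nothing, and 7 genes fell without it. Over all genes the share called in either direction was 25.2% without control replicate 2 of day 1 and 24.7% without restricted replicate 2. Median centring shifts all genes of a library by one amount, so a centred difference is relative to the median gene and can be positive where cover itself was not higher. With each library centred on its median, only Col6a1 and Col1a1 were still called lower, Col1a2 and Col16a1 turned to 1.45 and 9.06, and Col12a1, Col7a1, Col10a1, Col8a1 and Col17a1 were called higher, while over all genes 3518 were then called higher and 1245 lower. The call for Col1a2 was lost without replicate 2 of the control (adjusted p = 0.0974) or of the restricted libraries (adjusted p = 0.0714). The call for Col6a3 was lost in the same way (adjusted p = 0.0628 and 0.0625), and that for Col16a1 was lost without replicate 2 of the control or either restricted library of day 1, or without any single day 5 library (adjusted p = 0.0547 to 0.185). With lists trimmed to the same summed length, 2 genes were called lower, and with only peaks of a −log10 q of at least 3, 5 were.

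At day 5, 2 of the 17 rose and 7 fell, against 4.32% and 41.5% of all genes (45.8% in either direction, and 28.9% without control replicate 1 of day 5). Col4a1 rose by 34.4 points (SE 3.65, adjusted p = 0.000166) and Col4a2 by 20.2 (SE 3.67, adjusted p = 0.00251), with both restricted libraries above both control libraries. Of the fibrillar genes, Col1a1 fell by 31.6 points (SE 4.40, adjusted p = 0.000662), and Col5a3, Col5a1, Col3a1 and Col1a2 fell with differences of -31.5, -25.8, -19.8 and -11.3. The type VI genes Col6a1 and Col6a3 fell with differences of -34.8 and -25.8 points. Centred on library medians, Col4a1 and Col4a2 were higher by 51.1 and 36.9 points, and Col16a1, Col12a1, Col18a1, Col8a1 and Col17a1 were called higher as well, with centred differences of 15.8, 11.1, 19.6, 13.9 and 16.2. The uncentred differences of these 5 were -0.853, -5.60, 2.95, -2.80 and -0.51 points, and none was called. Col1a1, Col5a3, Col5a1 and Col6a3 were still called lower, Col3a1 and Col6a1 lost their call (adjusted p = 0.511 and 0.169) and Col1a2 turned to 5.33, while over all genes 3757 were then called higher and 1395 lower. Col1a2 lost its call without any 1 of the 4 day 5 libraries (adjusted p = 0.058 to 0.129). Col3a1 lost it without either control library or restricted replicate 1 (adjusted p = 0.0521 to 0.0805), and Col6a1 without either control library or restricted replicate 2 (adjusted p = 0.0603 to 0.0995). The calls for Col4a1 and Col4a2 at day 5 held in every alternative run, with adjusted p from 9.93e-05 to 0.00251 and from 0.000217 to 0.0243.

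The restriction effect at day 5 minus that at day 1 was tested as an interaction. It was called positive for 3 of the 17 and negative for 0, where 1.62% of all genes were called in the positive direction and 3.58% in the negative (5.2% in either, and 2.22% to 3.45% without any 1 of 6 libraries of days 1 and 5, the exceptions being restricted replicate 1 of day 1 and control replicate 2 of day 5). The values were 38.9 points for Col4a1 (SE 5.15, adjusted p = 0.00443), 30.0 for Col4a2 (SE 5.19, adjusted p = 0.0132) and 27.9 for Col18a1 (SE 5.90, adjusted p = 0.0327). Col4a2 lost its call without control replicate 1 of day 1 (adjusted p = 0.0612), control replicate 1 of day 5 (adjusted p = 0.0546) or either restricted library of day 5 (adjusted p = 0.0684 and 0.0561). Col18a1 lost it without any 1 of 7 libraries of days 1 and 5, restricted day 1 replicate 1 being the exception (adjusted p = 0.0913 to 0.127). The differences for Col1a1 and Col6a1, 14.2 and 19.5 points, were not called.

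In control medium, the days were compared next. From day 0 to day 5, 3 of the 17 rose and 5 fell, against 12.2% and 15.6% of all genes (27.8% in either direction, and 18.6% without control replicate 1 of day 5). Col4a1 fell by 51.2 points (SE 3.65, adjusted p = 1.9e-05) and Col4a2 fell by 46.8 (SE 3.67, adjusted p = 3.19e-05). Col18a1, Col7a1 and Col16a1 fell with differences of -23.0, -15.4 and -12.8 points. Col7a1 and Col16a1 passed the 5% filter only through day 0, where they are high (2.61% and 3.16% over the other 8 WT libraries), so their calls support nothing, and 3 genes fell without them. Col6a1, Col1a1 and Col5a3 rose by 33.6, 29.2 and 13.9 points. With library medians centred, 4 rose, with Col5a1 called as well (8.94 points), and 4 fell, Col7a1 having lost its call (adjusted p = 0.114). Col7a1 lost its call without any 1 of the day 1 or day 5 libraries, Col6a1 without day 0 replicate 1, either restricted day 1 library or either control day 5 library, and Col5a3 without day 0 replicate 1 or either control day 5 library.

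From day 1 to day 5, 5 of the 17 rose and 4 fell, against 17.1% and 5.95% of all genes (23.1% in either direction, and 11.7% to 15.2% without either control library of day 1 or control replicate 1 of day 5). Those that fell were Col4a1, Col18a1, Col4a2 and Col16a1, with differences of -37.8, -34.6, -31.0 and -8.10 points. Col16a1 again passed the filter only through the day 1 control libraries, and 3 genes fell without it. Those that rose were Col10a1 by 24.3 points, Col1a1 by 20.8, Col12a1 by 19.9, Col5a1 by 9.70 and Col8a1 by 6.89. Without Col10a1, whose cover cannot be told apart from that of Nt5dc1, 4 rose. Centred on library medians, 1 rose and 5 fell. All 5 increases lost their call without at least 1 of the libraries compared (adjusted p of at most 0.219 in those fits), as did the decrease of Col16a1 without either control day 5 library. The decreases of Col4a1, Col4a2 and Col18a1 did not lose theirs in any fit that left out 1 library. From day 0 to day 1, Col5a3 and Col6a1 rose by 19.6 and 41.6 points and Col4a2 fell by 15.8, where 0.967% of all genes rose and 5.67% fell (6.63% in either direction). That share was 1.49% and 1.5% without control replicate 1 or 2 of day 1, 3.95% and 10.4% without replicate 1 or 2 of day 0, and 3.54% and 3.53% without restricted replicate 1 or 2 of day 5. With library medians centred, Col4a2 lost its call (adjusted p = 0.304), and all 3 calls were lost when only the libraries compared were fitted.

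**Figure D4:**
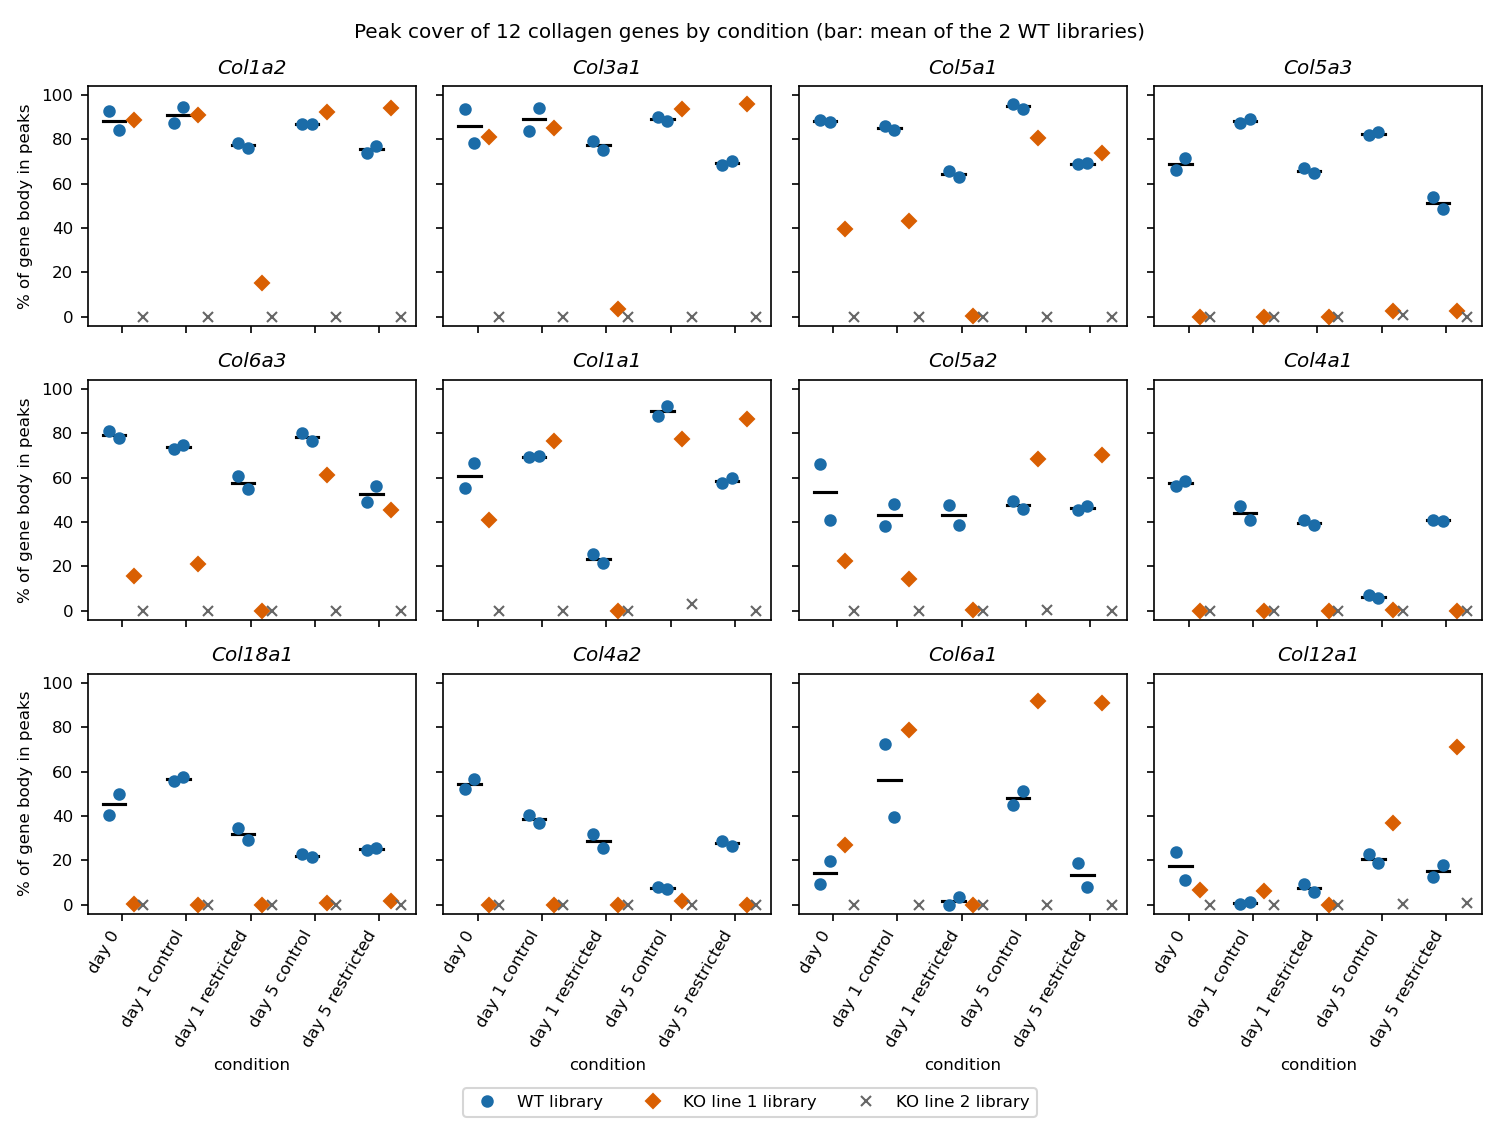
Peak cover (percent of gene body) of the 11 collagen genes marked in WT, and of Col12a1, in each condition. Circles are WT libraries with a bar at their mean, diamonds KO line 1 and crosses KO line 2. Col4a1 and Col4a2 are low only at day 5 in control medium among WT conditions, and the KO line 1 values of Col6a1 lie above both WT libraries except at day 1 under restriction.

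KO line 1 kept peaks over some collagen genes and lost them over others. Of the 44, 2 were marked at day 0, 4 and 7 in the control libraries of days 1 and 5, and 0 and 7 in the restricted libraries. Over all genes the shares marked were 1.06%, 0.818%, 8.4%, 0% and 3.32%, in the same order. In all, 10 of the 44 had at least 10% cover in a KO line 1 library, against 25.6% of all genes, and 8 were marked in one, against 8.64%. Every collagen gene stayed at or below 3.12% in KO line 2.

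Col1a2 had 88.6%, 91.1%, 92.5% and 94.1% in the KO line 1 libraries of day 0, day 1 control, day 5 control and day 5 restricted, and 15.1% in restricted day 1. By mean over the 5 libraries (76.3%) it ranked 3 of 19304 genes in that line. Col3a1, with 80.9%, 84.9%, 93.8%, 95.7% and 3.51% in the same order, ranked 10. In these 4 libraries both genes lay within or above the WT values of their condition, except that restricted day 1 was far below. The highest fold enrichment of a peak on Col1a2, the authors' own value, ranked 10 to 80 within each of the 4 KO line 1 lists, and within the WT lists it ranked 307 and 481 at the start, 771 and 321 in the control libraries of day 1, 1570 and 2005 in its restricted libraries and 2999 to 8701 in the 4 lists of day 5. Lists of unequal length make these ranks a description of each list and not a change.

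Col6a1 stood above both WT libraries of its condition except at restricted day 1. It had 26.9% at day 0, 78.5% and 91.6% in the control libraries of days 1 and 5, and 0% and 91.0% in the restricted ones. Col1a1 had 41.0%, 76.5%, 77.5% and 86.5% in the 4 libraries other than restricted day 1, where it was listed at 0. Col5a1 had 39.4%, 43.0%, 80.7% and 74.0%, and Col5a2 had 22.2%, 14.1%, 68.3% and 70.1%. For these 4 genes the day 5 libraries were the highest, and restricted day 1 held at most 0.328%. Col6a3 had 15.5%, 21.0%, 61.3% and 45.3%, and Col12a1 had 6.40%, 6.03%, 36.7% and 71.1%. Col6a2 and Col8a1 were near 0 before day 5, at most 1.5%, and had 43.0% and 29.2%, and 24.3% and 18.9%, in the control and restricted libraries of day 5.

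The genes that lost cover included Col5a3, which was marked in 9 of 10 WT libraries but had at most 2.79% in KO line 1. Col4a1 and Col4a2 had at most 0.304% and 1.58% there, and Col18a1 at most 1.47%. Together with Col10a1, Col16a1, Col17a1 and Col7a1 these are the 8 of 17 genes with a mean WT cover of at least 5% that stayed under 5% in every KO line 1 library, against 4002 of 9514 genes in all. Both groups contain genes of high WT cover: Col5a3 averaged 71.3% and Col1a2 83.8% over the 10 WT libraries. Among the 18 genes with a mean of at least 5% in either line, the Spearman correlation of mean WT and mean KO line 1 cover was 0.63, a description across genes of shared libraries.

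Averaged over the 5 conditions, KO line 1 was compared with WT in a limma fit of 8861 genes that held 15 of the 44. The 5 libraries of a KO line serve as replicates in this fit, as in the KO line 2 and between-line comparisons below. They are not independent lines, so the p-values do not measure variation between lines. Of the 15, 2 had more cover and 7 less, against 0.508% and 92.8% of all genes (93.3% in either direction). Over all genes 45 had more cover, and 13 to 65 did when 1 library was left out. Col6a1 rose by 30.9 points (SE 10.3, adjusted p = 0.00926) and Col6a2 by 10.3 (SE 4.77, adjusted p = 0.0496). Col6a2 and Col8a1 reached the mean cover of 5% needed for testing only through the KO line 1 libraries of day 5, with means of 5.69% and 5.33% over all 20 libraries and 2.31% and 3.53% over the other 18, so the call for Col6a2 follows in part from that filter and supports nothing. Col5a3 fell by 70.3 points (SE 4.56, adjusted p = 3.02e-10), and Col6a3, Col4a1, Col18a1, Col5a1, Col4a2 and Col10a1 fell with differences of -39.7, -37.6, -35.6, -32.8, -31.0 and -15.8. Col5a3, Col4a1, Col18a1, Col4a2 and Col10a1 passed the filter only through WT, with means of at most 0.585% over the 10 KO libraries, as did 74.7% of all genes called lower, so their number supports nothing and their values are a description. The cover of Col10a1 cannot be told apart from that of Nt5dc1 in any of these comparisons. Col1a2, Col3a1, Col1a1 and Col5a2 were not called, with differences of -7.48 (SE 8.84), -10.4 (SE 10.05), -4.18 (SE 8.24) and -11.7 (SE 8.23). Restricted day 1, the library that stands apart, enters these averages with -62.1, -73.7, -23.5 and -42.7 points. In the other KO line 1 libraries Col1a2 differed from the WT mean by 0.146 to 18.6 points and Col3a1 by -5.31 to 26.4. There Col1a1 ranged from -20.0 to 28.0 and Col5a2 from -31.15 to 23.8. The median difference was -11.7 points over the 15 and -37.0 over all genes. Centred on library medians, 10 of the 15 were higher and 1 lower, where 3942 genes in all were higher and 1981 lower, and Col6a3, Col5a1, Col4a1, Col4a2, Col10a1 and Col18a1 turned positive. Without restricted day 1 of KO line 1 the same 9 calls were kept and Col12a1 was called higher as well, with differences of 41.1 for Col6a1 and 13.2 for Col6a2. Col6a1 lost its call without the restricted day 5 library (adjusted p = 0.0571), and Col6a2 without any 1 of 8 WT libraries (adjusted p up to 0.0859).

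At day 5 alone, a comparison added after the data were seen, KO line 1 has 1 library per medium. All 20 libraries were fitted by their group means, and the standard errors and p-values below come from the spread between WT replicates, with each KO library assumed to vary like them. In this fit 7 of the 15 rose and 7 fell, against 5.24% and 81.9% of all genes (87.1% in either direction). Those with more cover in KO line 1 were Col6a1 by 60.6 points (SE 8.32, adjusted p = 0.000146), Col12a1 by 35.9 (SE 3.91, adjusted p = 3.54e-05, from KO values of 36.7% and 71.1% whose distance from each other does not enter the SE), Col6a2 by 29.7, Col5a2 by 22.2, Col3a1 by 15.5, Col8a1 by 14.4 and Col1a2 by 12.1. Of these 7, Col6a2 and Col8a1 had entered the fit only through the libraries in which they are then called higher, and their calls support nothing. Col1a1 was higher by 7.71 (SE 3.27) and was not called. This contrast averages the 2 media, and for Col1a1 and Col5a1 they went opposite ways. Col1a1 differed from the WT mean by -12.6 points in control medium and by 28.0 under restriction, and Col5a1 by -14.1 and 4.97. Those with less were Col5a3, Col4a1, Col18a1, Col10a1, Col4a2, Col6a3 and Col5a1, with differences of -64.3, -23.3, -22.4, -21.7, -16.8, -12.2 and -4.58 points. Col10a1 passed the filter only through the WT libraries of day 5. Centred on library medians, 14 of the 15 were called higher, Col1a1 among them (49.2 points, adjusted p = 6.66e-06), only Col5a3 was lower, and the other 6 of these 7 turned positive, while over all genes 4557 were higher and 1833 lower. Col5a1 lost its call without control replicate 1 (adjusted p = 0.0768) or either restricted library (adjusted p = 0.0571 and 0.0582) of WT day 5. With only peaks of a −log10 q of at least 3, 3 rose and 5 fell. Among all 19304 genes, 8 collagen genes in the restricted library and 5 in the control library of KO line 1 at day 5 lay at least 10 points above both WT libraries, against 3.98% and 1.71% of genes. Higher cover means that called peaks extended further, and the amount of the mark was not measured.

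Markers of muscle and of other cells also differed between KO and WT at day 5, not all in one direction. In KO line 1 the summed cover of the 7 muscle markers at day 5 was 189 points in control medium, against 497 and 516 in WT, and 122 under restriction, against 201 and 206, and Myod1 and Myog were listed at 0 in all 5 libraries. The summed cover of the 6 fibroblast markers was 65.6 points at day 5 under restriction in KO line 1, against 11.2 and 12.8 in WT, with Dcn at 47.6% and Dpt at 18.1%. In its control library of day 5 the sum was 7.81, against 34.7 and 26.0. Pdgfra, Thy1, Lum and Tcf21 were listed at 0 in both KO line 1 libraries of day 5. The summed cover of the cartilage and bone markers in KO line 1 at day 5 was 89.3 points in control medium, against 87.6 and 75.1 in WT, and 90.03 under restriction, against 50.8 and 53.2. Sox9 had 64.1% and 64.7% in these KO line 1 libraries, and Acan and Sp7 were listed at 0. In KO line 1 restricted against control medium at day 5, Col12a1 was higher by 34.4 points and Col1a1 by 8.96, while Col6a3 was lower, with a difference of -16. In KO line 2 all 7 muscle markers were listed at 0 in every library, and the cartilage and bone markers reached at most 0.193%. Its fibroblast markers summed to 8.01 points in control medium and 18.1 under restriction at day 5, with Lum at 3.90% and 9.66%. The part of these markers in the collagen results was not tested.

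**Figure D5:**
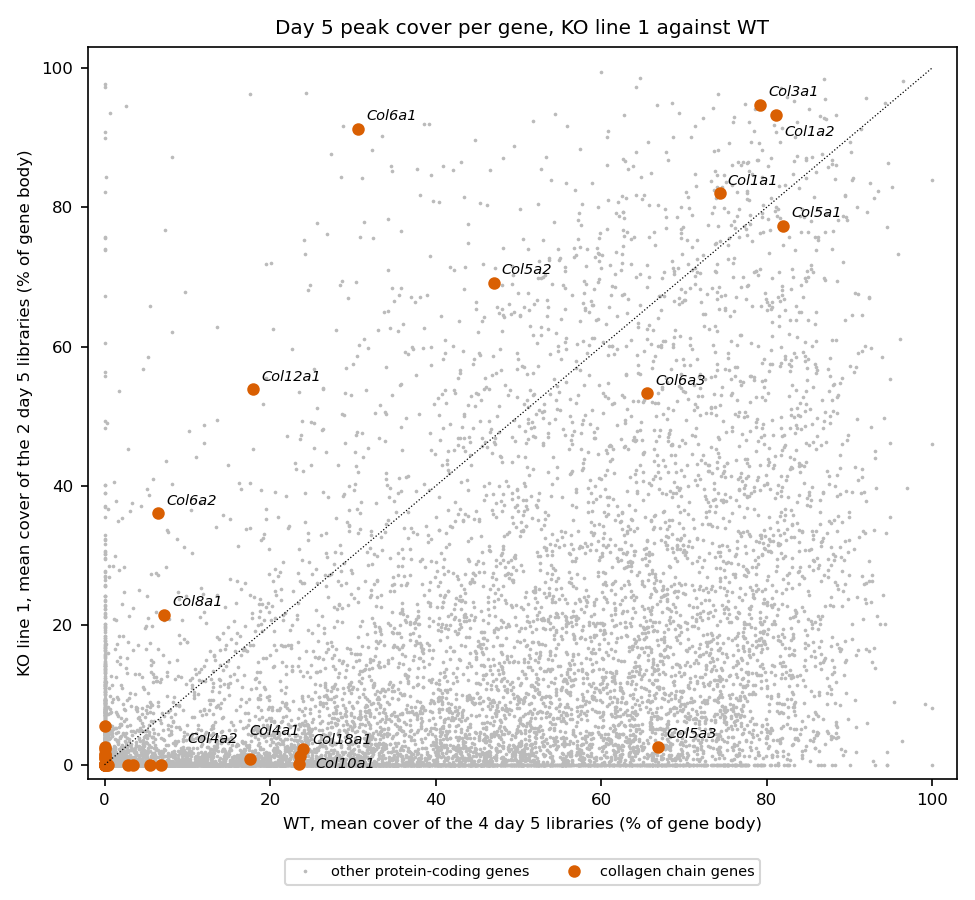
Mean cover per gene at day 5, KO line 1 (2 libraries, vertical axis) against WT (4 libraries, horizontal axis), in percent of gene body. Grey points are other protein-coding genes, orange points the 44 collagen genes, and the dotted line marks equal cover. Col6a1 (91.3% against 30.7%) lies far above the line and Col5a3 (2.59% against 66.9%) far below it.

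KO line 2 had less cover than WT for 12 of the 15 genes, against 98.5% of all genes, and 0 had more, against 0.0113%. Of these 12, the same 5 that passed the filter only through WT in the other line did so here, as did 71.4% of all genes called lower. After centring on library medians, 5 were called lower (Col3a1, Col6a3, Col5a1, Col1a2 and Col5a3) and 6 higher (Col4a2, Col12a1, Col10a1, Col6a2, Col18a1 and Col8a1), and Col5a2, Col4a1 and Col6a1 turned positive without being called. Of the 6, Col4a2, Col10a1, Col6a2 and Col18a1 were listed at 0 in all 5 KO line 2 libraries, so their centred values show no cover gained. Col1a1 lost its call (adjusted p = 0.14), and over all genes 3324 were then called higher and 3046 lower. The largest differences were those of Col1a2 and Col3a1, at -83.8 and -82.2 points. Both were listed at 0 in all 5 libraries and had the highest mean WT cover of the 15. KO line 1 had more cover than KO line 2 for 7 of the 15, Col1a2, Col3a1, Col6a1, Col1a1, Col5a1, Col5a2 and Col6a3, by 76.3, 71.8, 57.6, 55.7, 47.5, 35.0 and 28.6 points, where 9.22% of all genes were called in that direction and 0% in the other (4.92% without the restricted day 5 library of KO line 1). Col5a2 and Col6a3 lost this call without either KO line 1 library of day 5 (adjusted p = 0.11 to 0.121). Without restricted day 1 of KO line 1, 8 were called, with differences of 90.5 for Col1a2 and 88.0 for Col3a1. In an exact permutation test of WT against both lines together, within condition over 7776 arrangements, 11 of the 15 genes were called, where 96.9% of all genes were. The 4 that were not were Col6a1 (adjusted p = 0.893), Col12a1 (0.986), Col6a2 (0.549) and Col8a1 (0.662), all 2-sided. The smallest p that these arrangements allow is 0.000257.

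Bodies were divided into 3 equal parts from the 5' to the 3' end, and on Col1a2, Col3a1 and Col5a1 the 5' part had the lowest mean cover in both WT and KO line 1. On Col1a2 mean WT cover was 61.7%, 97.4% and 92.2%, and in KO line 1 it was 64.5%, 85.3% and 79.0%. Col3a1 had 54.5%, 96.5% and 95.5% in WT and 54.6%, 81.0% and 79.7% in KO line 1. On Col5a1 the parts had 49.7%, 92.6% and 98.5% in WT and 22.3%, 55.7% and 64.4% in KO line 1. Col6a1 had 27.7%, 27.9% and 24.5% in WT and 51.6%, 61.4% and 59.8% in KO line 1. Of the 38 collagen promoter windows 0 had a peak in KO line 1, against 1.98% of all windows.

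Genes that make, cut or bind collagen were set beside these from a list of 46 (chain modification and folding, propeptide cleavage, crosslinking, receptors and uptake, degradation), of which 32 were tested in WT. Under restriction 15 of them fell and 0 rose at day 1, against 36% and 2.38% of all genes, with a median difference of -13.6 points. At day 5, 20 fell and 1 rose, against 41.5% and 4.32% of all genes, with a median of -15.8. The largest decreases at day 5 were in the crosslinking enzyme Loxl1, which fell by 60.9 points, and in P3h4 of the collagen hydroxylase complexes and the protease inhibitors Timp3 and Timp2, with differences of -52.6, -52.2 and -49.7, while the collagen receptor chain Itga10 rose by 5.81. From day 0 to day 5 in control medium 7 rose and 6 fell, against 12.2% and 15.6% of all genes. Averaged over the conditions, KO line 1 against WT had 1 of 30 higher, the gelatinase Mmp2 by 58.2 points, and 24 lower, with a median difference of -32.5, against 0.508% and 92.8% of all genes. At day 5, the comparison added later, it had 6 of 30 higher and 16 lower, against 5.24% and 81.9% of all genes. There Mmp2 was higher by 78.6 points, the lysyl oxidases Loxl3 and Lox by 32.7 and 29.3, and the collagen chaperone Serpinh1 by 20.6. The propeptide protease Adamts14 fell by 75.2 points, and the prolyl hydroxylase P3h1, the lysyl hydroxylase Plod3 and the galactosyltransferase Colgalt1 had differences of -69.1, -61.3 and -55.1. The list was chosen with earlier results of these data known, and no test was made of it as a set.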

How the data were processed

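H3K36me3 ChIP-seq peaks of 20 C2C12 libraries were used, in the GRCm38 build named in the submitters' processing notes. The peak caller and its settings are not given in the sources used here. Each deposited list gives the authors' score per peak (not used), their fold enrichment ratio, and their −log10 p and −log10 q, the lowest −log10 q in a list being at most 1.96. An input sample named in the labels was not analysed here. Depth is unknown.

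Peaks were merged within each library and laid over gene bodies of the RefSeq table (GRCm38.p6), which gave the percent of each body of at least 2 kb inside the authors' deposited peaks. Gene bodies with a mean cover of at least 5% in the libraries fitted were tested with limma 3.58.1 in R 4.3.3 (empirical Bayes moderation, group means, Benjamini-Hochberg adjustment over all genes tested, threshold 0.05), with all 10 WT libraries in the fit for day and medium and all 20 with condition as a term for genotype. KO line 1 against WT at day 5 came from group means of all 20, where only the WT replicates give the spread. WT was also compared with both KO lines together in an exact permutation test within condition, and the contrasts of single lines were not tested this way. Other steps used Python 3.11.15, numpy 2.4.6, pandas 2.3.3 and scipy 1.17.1. On simulated data with 200 genes changed by 30 points, the fits recovered 68% of them for restriction at day 1 and 78% at day 5 (9514 genes), 49.5% for the interaction and 96.5% for KO line 1 against WT (8861 genes), and 6.85%, 7.69%, 1.98% and 2.53% of the calls were false. The simulated noise came from differences between WT replicates only. It held no variation among KO libraries and no near-empty list, so the 96.5% and 2.53% do not describe the KO lists as they are. The interval arithmetic was checked against 200 simulated interval sets with known answers, and 0 gave another result.

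The members, lists and tests were chosen with earlier results of these data known. The genes named are those marked in at least 1 WT library, all collagen genes called in a contrast (10 per direction at most), those with at least 10% cover in a KO line 1 library, those listed at 0 in all libraries, and up to 4 called genes per direction from the list of collagen-processing genes. Alternatives were a stricter −log10 q, lists matched in summed length, no filter on cover, median centring, bodies without shared bases, joining of peaks within 1 kb, the replicate number as a block, only the libraries compared, other limits for marked genes and leaving out each library. The comparison at day 5 between KO line 1 and WT and leaving out KO libraries were added after the data were seen.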

Additional observations from a re-analysis of the deposited data

Results flagged for a closer look

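In WT the effect of restriction differed between day 5 and day 1 for 3 collagen genes in the interaction test, by 38.9 points for Col4a1, 30.0 for Col4a2 and 27.9 for Col18a1. In KO line 1, Col12a1 changed by -6.03 points under restriction at day 1 and by 34.4 points at day 5, and Col1a1 by 8.96 points at day 5, in each case opposite to the direction of both WT libraries. The value at day 1 is a fall from 6.03% to 0 in the restricted library that stands apart, with 791 peaks over 0.307 Mb. KO line 1 has 1 library per condition, so its differences for Col12a1 and Col1a1 were not tested. The WT differences of Col12a1 under restriction, 6.86 points at day 1 and -5.60 at day 5, were not called. The WT fall of Col1a1 at day 5 was called.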

How the results depend on the processing

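Of 1475 values for 82 named gene results under the alternatives, 1290 kept their direction and their side of the threshold, 164 kept the direction and lost the call, and 21 reversed. All reversals came with median centring. They were Col16a1 (9.06) and Col1a2 (1.45) for restriction at day 1 and Col1a2 (5.33) at day 5. For KO line 1 against WT they were Col6a3 (5.31), Col5a1 (12.2), Col4a1 (7.47), Col4a2 (14), Col10a1 (29.3) and Col18a1 (9.40), and at day 5 Col6a3 (29.3), Col5a1 (36.9), Col4a1 (18.2), Col4a2 (24.7), Col10a1 (19.8) and Col18a1 (19.1). For KO line 2 against WT they were Col5a2 (0.702), Col4a1 (9.72), Col4a2 (16), Col10a1 (30.7), Col6a1 (20.7) and Col18a1 (11.2). By construction, centring subtracts the lower median of the KO and restricted libraries.

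Counts of collagen genes called or marked moved as follows, by over 1.5 times except where said, and the cause was not tested. With a −log10 q of at least 3, they were 5 for restriction at day 1, 0 from day 0 to day 1, 4 from day 1 to day 5, 3 from day 0 to day 5, 3 for KO line 1 against KO line 2 and 8 for KO line 1 against WT at day 5. With lists trimmed to the same summed length they were 2 and 5 for restriction at days 1 and 5, 1 from day 0 to day 1 and 5 from day 1 to day 5, and the mean number marked in a WT library was 4.8 against 6.5, a smaller change that exceeds the SD over the libraries. With no filter on cover 17 were called for KO line 1 against WT and 27 at day 5, of 35 tested. With only the libraries compared 0 were called from day 0 to day 1. At a limit of 25% or 75% in place of 50%, added for WT after the data were seen, the mean number in a WT library was 10 or 3.3. At 75% the restricted WT libraries held 2 and 2 genes at day 1 and 0 and 1 at day 5. In KO line 1, 5 genes had at least 25% cover at day 0 and 4 had at least 75% at day 5 under restriction.

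Leaving out 1 library at a time gave 5 to 9 calls for restriction at day 1, 6 to 9 at day 5, 0 to 4 from day 0 to day 1, 3 to 9 from day 1 to day 5, 5 to 7 from day 0 to day 5, 1 to 3 for the interaction, 8 to 10 for KO line 1 and 12 to 13 for KO line 2 against WT, 5 to 9 between the lines, and 13 to 15 for KO line 1 at day 5. With the replicate number as a block, counts were 7 and 9 for restriction at days 1 and 5, 1 from day 0 to day 1, 8 from day 1 to day 5, 7 from day 0 to day 5 and 2 for the interaction. Deviations of same-numbered WT libraries correlated at -0.44 between day 0 and day 1 in control medium and at -0.08 to 0.06 otherwise. The -0.44 means that deviations of these 2 days were shared between libraries of opposite number, from a source that was not tested. With the day 0 numbers crossed in the block, 3 collagen genes were called from day 0 to day 1.

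The depth behind each list is unknown, and no limit of detection is given for a gene listed at 0. The spike-in was not used to scale them. KO values rest on 1 library per line and condition.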
